A study of Mus musculus with 2 samples.

Results

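Il7, Tslp, Il7r and Crlf2 encode a pair of related cytokines and the receptor chains that bind them. The 4 genes were taken by symbol, and 4 of 4 were present in the deposited table of 19347 genes over annotated cells of the mouse dural meninges and in the matrices of 27998 genes behind it. Their transcripts were followed across the authors' cell clusters in an Il33 heterozygous and an Il33 deficient library, with the ligands looked for in stroma and the receptor chains in lymphoid cells. Il7r had that pattern. Il7 UMIs lay mostly in stroma but were too sparse for a fine map. Tslp went against it, with its highest level in macrophage-like cells, and so did Crlf2, which was spread over most immune, endothelial and stromal classes.

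IL-7 is made by stromal cells of bone marrow, thymus and other organs and supports the survival and growth of B cell precursors, T cells and innate lymphoid cells. It binds a receptor of the IL-7 receptor alpha chain (Il7r) and the common gamma chain (Il2rg), which signals through JAK1, JAK3 and STAT5. TSLP, best known from barrier epithelium and fibroblasts, binds the chain encoded by Crlf2 together with the same alpha chain, signals through JAK1, JAK2 and STAT5, and acts on dendritic cells, basophils, mast cells, type 2 innate lymphoid cells and T cells.

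Cells came from dural meninges of mice at postnatal day 14, and the comparison addresses what loss of IL-33, an alarmin of stromal and barrier cells, changes there. Both genotypes carry the Il33 H2B-mCherry reporter allele. Controls (het, Il33 mCherry/+) keep 1 intact copy of Il33 and deficient mice (KO, Il33 mCherry/mCherry) have none, so no library came from mice without the reporter. For each sex and genotype, tissue of 5 to 8 mice was pooled, digested at body temperature and sorted, and CD45+CD11b- cells, gp38+CD31- cells and total viable cells were mixed 1:1:2, so shares of cell types were set in part by the sort. There was 1 library per genotype (n = 1), each with female and male cells, so no difference between genotypes or cell classes has a replicate check and none was tested. Intervals are 95% intervals of counting error only. They treat UMIs (unique molecular identifiers, each marking 1 captured transcript) or cells as independent.

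Expression is reported in CPM, meaning counts of a gene scaled to 1000000 UMIs of its class within 1 library. A KO/het ratio is counted as different here when it is at least 1.5-fold from 1 with at least 20 UMIs over both libraries. The annotated cells numbered 5950 in het and 6594 in KO, with medians of 12746.5 and 12203.5 UMIs per cell. They fell in 22 deposited clusters. Cluster 9 carried the authors' names ILC2s, gdTcells, Tcells and NK, which gave 25 classes. Other names rest on marker genes of the same cells and say only that a cluster is like a cell type. The libraries shared 36 barcodes, 14 of them among annotated cells. Il33 itself was measured at 97.0 CPM in het against 20.4 in KO over stromal clusters 0, 4, 5 and 7, a ratio of 0.210 (0.195 to 0.226).

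The promoters of the receptor chains are shown because their transcripts differed in breadth across classes. Both windows of 300 bases around the start site come from RefSeq on GRCm38.p6, and both genes lie on the minus strand. The Il7r stretch is chr15:9529942-9530126 and lies before the outermost RefSeq start. The Il7r site of 30 bases is chr15:9529908-9529937, which lies downstream of that stretch on the gene's strand, past the outermost RefSeq start. The gene coordinates given below come from GENCODE M21, where Il7r begins at 9530176 on the minus strand. By that annotation the whole Il7r window lies inside the gene. The Crlf2 stretch is chr5:109559129-109559243. Sequences read 5′ to 3′ on the gene's strand, and capitals mark the core motif of ETS factors (GGAAGT, here read as its reverse complement ACTTCC) in Il7r and GC boxes (GGGCGG) in Crlf2.
Il7r: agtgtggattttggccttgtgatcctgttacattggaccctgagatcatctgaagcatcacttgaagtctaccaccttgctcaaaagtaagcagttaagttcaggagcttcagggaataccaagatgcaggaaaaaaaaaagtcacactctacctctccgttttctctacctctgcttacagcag
Il7r site: ccttttgctcagACTTCCtgtttctggcac
Crlf2: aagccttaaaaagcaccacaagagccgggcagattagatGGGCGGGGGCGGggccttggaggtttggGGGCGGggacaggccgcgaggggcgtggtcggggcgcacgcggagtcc

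The Il7r window held 1 CpG at 45.7% GC, and the Crlf2 window held 31 CpGs at 71.7% GC. The median over 32851 promoter windows of the same length was 7 CpGs and 52.7% GC, and the Crlf2 count was above that of 89.4% of them. On both strands, the Crlf2 window had 6 GC boxes and no ETS core, and the Il7r window had 1 ETS core and no GC box. GC boxes were found in 35.7% and ETS cores in 23.8% of all windows. The STAT motif TTCNNNGAA was found once in the Il7r window, in no place of the Crlf2 window and in 8.30% of all windows. These matches describe letters and not bound sites. The window with many CpGs belonged to the transcript found in nearly all classes, and the window with few belonged to the one concentrated in lymphoid cells. That pairing covers only these receptor genes, and a link between CpGs and breadth was not tested.

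The ligand genes came first. Il7 (ENSMUSG00000040329, GRCm38 chromosome 3, 7569994 to 7613760, minus strand) gave 19 UMIs in het and 21 in KO over all annotated cells. Those UMIs came from 16 het cells (0.269%) and 21 KO cells (0.318%). The levels were 0.216 CPM (0.130 to 0.338) and 0.223 CPM (0.138 to 0.341). Il7 was therefore at the edge of what these libraries can show, and no class reached 20 UMIs.

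Within that limit, most Il7 UMIs lay in stroma. The 4 stromal clusters held 11 of the het UMIs (57.9%) and 13 of the KO UMIs (61.9%), beside 39.9% and 44.0% of the UMIs of all genes, at 0.314 CPM in each library and a ratio of 0.999 (0.413 to 2.46). Osteolineage-like cluster 4, marked by Bglap, Sp7 and Alpl of bone-forming cells, held the largest number in het. It had 9 UMIs in 7 of 360 het cells (1.74 CPM, 0.794 to 3.30) and 6 UMIs in 6 of 507 KO cells (0.855 CPM, 0.314 to 1.86). Cluster 0, stroma led by Slc47a1 and Cxcl14, had 0 in het, which allows up to 0.153 CPM, and 6 UMIs in KO (0.279 CPM). Arachnoid barrier-like cluster 5 had 0 in both libraries, which allows 0.530 CPM in het and 0.403 in KO. The counts are too few to tell cluster 4 from the other stroma in KO.

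Stromal cells with a Cxcl12 UMI, the chemokine that holds B cell precursors in their niche, carried 11 of 11 het and 10 of 13 KO stromal Il7 UMIs. They were 1568 of the 1903 het and 1926 of the 2350 KO stromal cells. Most stromal Il7 UMIs would therefore lie in such cells without any link between the genes. Outside stroma, Il7 UMIs were few: cluster 3 had 0 and 3, dendritic-like cluster 14 had 3 and 0, and endothelial-like cluster 8 had 1 and 1. The KO UMI of cluster 8 was in a cell with both a Prox1 and a Lyve1 UMI, markers of lymphatic endothelium, a cell type known to make IL-7 elsewhere. B cell-like clusters 1, 2, 6, 10 and 16, used as background for the ligands, had 2 UMIs in het (0.117 CPM) and 1 in KO (0.0533 CPM). The antisense gene Gm16685 overlaps Il7 and had 20 UMIs over all cells, 7 of them in stroma.

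Tslp (ENSMUSG00000024379, GRCm38 chromosome 18, 32815383 to 32819797, plus strand) gave 490 UMIs in 346 het cells and 575 UMIs in 416 KO cells. Its level over all cells was 5.57 CPM (5.09 to 6.09) in het and 6.11 CPM (5.62 to 6.63) in KO. A long noncoding gene on the opposite strand, 4930455D15Rik, had 11 UMIs in all, 2 of them in cluster 3 and 5 in stroma. Whether counting used strand was not given in the sources used here, so such overlapping genes cannot be told apart.

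The highest Tslp level was in cluster 3, which had 6 of 6 macrophage markers, among them Mrc1, Cd163 and C1qa. Cluster 3 held 226 UMIs in 144 of 446 het cells, or 29.2 CPM (25.5 to 33.2). It held 225 UMIs in 148 of 440 KO cells, or 30.9 CPM (27.0 to 35.2). The libraries overlapped, with a ratio of 1.06 (0.876 to 1.28), and cluster 3 alone carried 46.1% of het and 39.1% of KO Tslp UMIs. No other class matched it in either library.

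Of cluster 3 cells, 32.3% in het and 33.6% in KO had a Tslp UMI (median depth 13928 and 13590 UMIs). Of B cell-like cells, 0.259% and 0.415% did (median depth 4965 and 4967). After thinning each cell to 1000 UMIs, 3.68% and 3.73% of cluster 3 cells still had a Tslp UMI. In B cell-like cells the Tslp level was 0.293 CPM from 5 UMIs in het and 0.479 CPM from 9 UMIs in KO. Tslp in cluster 3 thus stood far above the level in cells of another lineage. A single cluster 3 cell carried at most 8 Tslp UMIs in het and 4 in KO.

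Cluster 3 also carried fibroblast transcripts, and the values that bear on their part in its Tslp level follow. The 7 fibroblast markers summed to 8547 CPM in het and 8091 in KO there, against 40836 and 39693 in stroma and 1507 and 1667 in B cell-like cells, where 1630 of 1929 het cells had a Col1a1 UMI. The 6 macrophage markers summed to 10186 and 10800 CPM in cluster 3 and to 46.4 and 36.0 in stroma. Cells of cluster 3 with a Tslp UMI had 9492 and 9394 CPM of the fibroblast markers, and those without had 7964 and 7291. The stromal clusters themselves had lower Tslp than cluster 3. Scrublet, which scores likely doublets, put 30.7% of het and 28.9% of KO cells of cluster 3 among the 10% of cells with the highest score. Without those cells the Tslp level of cluster 3 was 35.5 CPM in het and 40.5 in KO.

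Other classes gave the same order of high Tslp with macrophage transcripts, in a division chosen after the values were seen. Cluster 11 held mixed myeloid cells led by Cd209a and Mgl2 and was left unnamed. Its cells with a C1qa UMI, a complement gene of macrophages, had 14.4 CPM of Tslp in het and 13.6 in KO. Its cells without one had 1.12 CPM from 1 UMI in het and 0 UMIs in KO, which allows 2.47 CPM. Cluster 13 carried neutrophil and macrophage markers together and was also left unnamed. Its cells with a C1qa UMI had 19.4 CPM in het and 19.3 in KO, from 51 and 62 UMIs. Its cells without one had 0 UMIs in both libraries, which allows 3.38 and 3.54 CPM. In both clusters nearly all Tslp UMIs were in cells with C1qa.

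**Figure D1:**
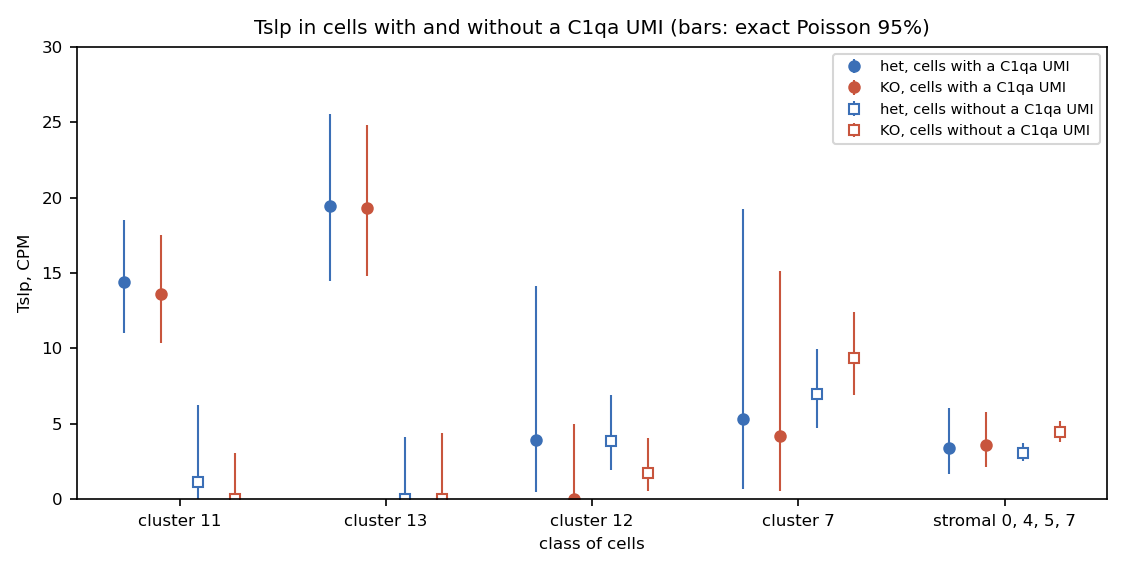
Tslp level in CPM (vertical axis) in cells with and without a C1qa UMI, by class (horizontal axis) and library, with exact Poisson 95% bars. In clusters 11 and 13 Tslp was at 13.6 to 19.4 CPM in cells with C1qa and at 0 to 1.12 CPM in cells without, while in stroma it was present in both kinds of cell.

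Within cluster 3, Tslp was also read by marker, again in divisions chosen after the values were seen. Cells with a UMI of Cd209f, a lectin gene of border macrophages, had 36.1 CPM in het and 43.9 in KO, against 25.8 and 24.4 in the other cells. Cells with H2-Aa, a class II antigen presentation gene, had 24.5 and 24.3 CPM, against 30.4 and 33.1 in those without. Whether that gap for H2-Aa lies beyond counting error was not tested. Cluster 11 showed the same order for Cd209f, at 19.5 and 18.8 CPM with it and 9.22 and 8.65 without. Monocyte-like cluster 18 had 0 Tslp UMIs in het and 4 in KO. Dendritic-like cluster 14 had 3 and 0.

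Stroma followed cluster 3 in UMIs but not in level, since clusters 11, 13 and 20 stood above it in CPM, and its share of UMIs was set in part by the sort. The 4 stromal clusters held 109 UMIs in het (3.11 CPM, 2.55 to 3.75) and 180 in KO (4.34 CPM, 3.73 to 5.02), or 22.2% and 31.3% of all Tslp UMIs. The share of stromal cells with a Tslp UMI was 5.04% in het and 6.47% in KO, at median depths of 17776 and 17093.5 UMIs, and 0.312% and 0.472% after thinning. Stromal cells without a C1qa UMI had 3.08 and 4.43 CPM. Among the clusters, Pi16 and Dpt cluster 7 was highest at 6.86 CPM in het and 8.91 in KO. Cluster 4 followed at 4.24 and 5.70, cluster 5 at 3.18 and 3.63, and cluster 0 at 1.89 and 2.98. With all classes ranked in het, cluster 3 stood above cluster 13 and cluster 11 above cluster 7 beyond counting error, and no other neighbours among the classes with Tslp did. In KO cluster 3 was the one class above its neighbour beyond counting error among the highest 10.

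Stromal cells with a UMI of Pi16, a gene of adventitial fibroblasts, had 4.59 CPM of Tslp in het and 6.49 in KO, against 2.73 and 3.78 in the rest. Cells with Ccl19 had 5.29 and 5.21 CPM, against 3.00 and 4.30. For Ccl19 the gap was small in KO, and whether it lies beyond counting error was not tested. Mural-like cluster 20, marked by Rgs5 and Acta2 of pericytes and smooth muscle, had 13.2 CPM (6.33 to 24.3) in het and 17.1 CPM (9.10 to 29.2) in KO, from 10 and 13 UMIs. Of those UMIs 9 and 12 were in cells without C1qa. Endothelial-like cluster 8 had 4 and 5 UMIs.

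**Figure D2:**
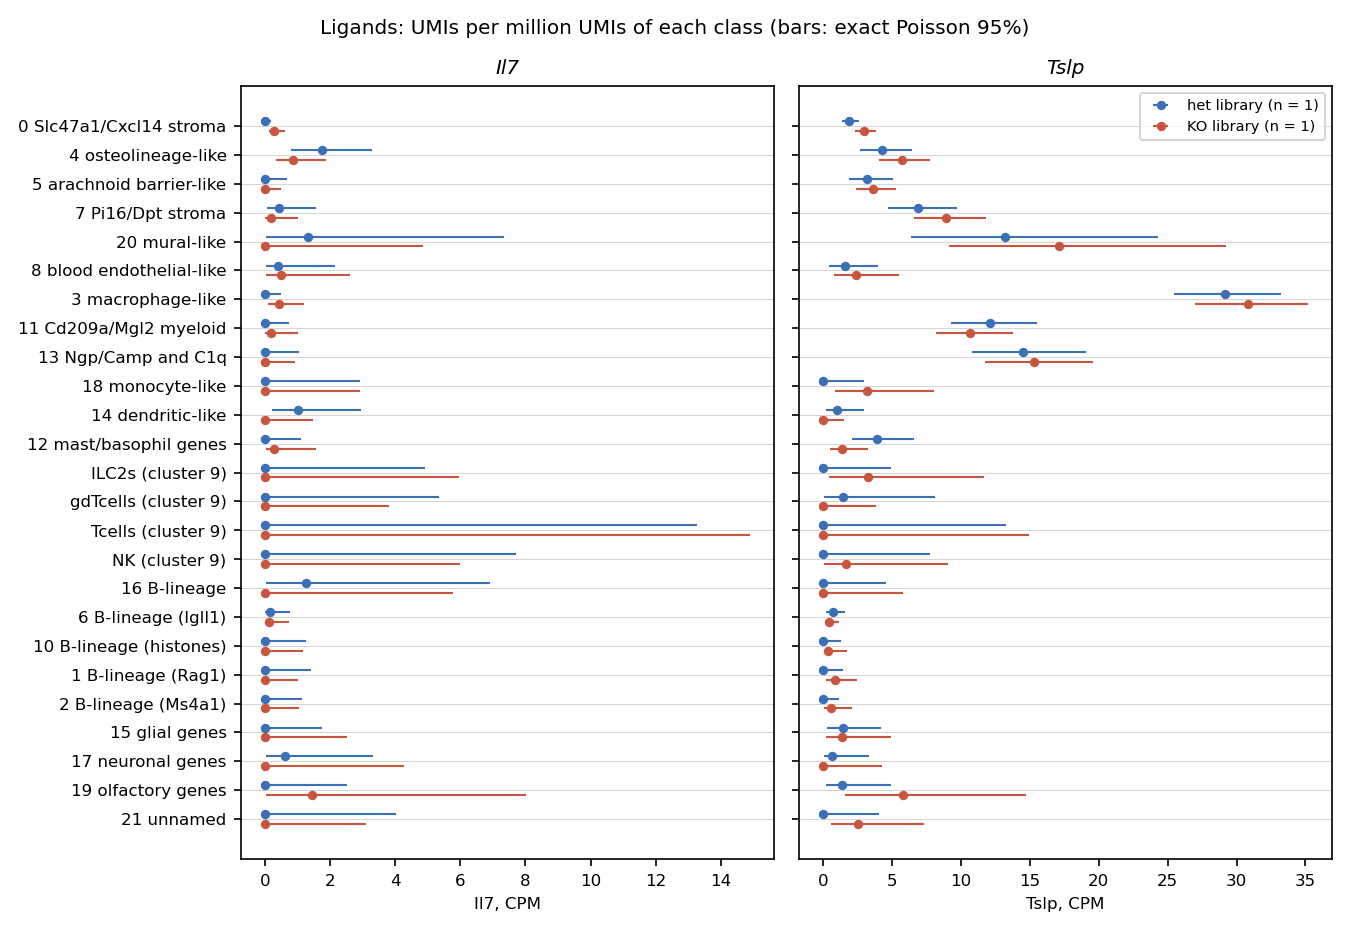
Il7 and Tslp levels in CPM (horizontal axes) in the 25 classes (vertical axis), with het in blue, KO in red and exact Poisson 95% bars. Il7 was at or below 1.74 CPM in each class with wide bars, and Tslp was highest in macrophage-like cluster 3, at 29.2 CPM in het and 30.9 in KO.

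The Tslp ratio between genotypes was above 1 in each stromal cluster, and 1.40 over them together (1.09 to 1.79), which is under 1.5-fold. By sex the stromal ratio was 1.26 (0.884 to 1.81) in female and 1.54 (1.09 to 2.19) in male cells. Of 8 classes with at least 20 Tslp UMIs, 1 differed by the rule. That was cluster 0, with 37 het and 64 KO UMIs and a ratio of 1.57 (1.03 to 2.43), higher in KO. In cluster 0, 7.17% of all measured genes differed by the same rule. The ratio there was 1.06 in female and 2.26 in male cells, so the call rested on the male cells. In such sums, more cells with the transcript and more transcript per cell cannot be told apart.

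The alpha chain shared by both receptors was the most lymphoid member. Il7r (ENSMUSG00000003882, GRCm38 chromosome 15, 9505788 to 9530176, minus strand) gave 4316 UMIs in het and 4876 in KO, at 49.1 and 51.8 CPM over all cells. UMIs of Il7r were found in 20.2% and 20.9% of all cells. The B cell-like clusters held 63.1% of het and 62.4% of KO Il7r UMIs, and cluster 9 held 26.1% and 27.5%.

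The highest levels per class were in cluster 9. The authors' gdTcells had 663 CPM (604 to 727) in het and 618 CPM (570 to 670) in KO (KO/het 0.932, 0.824 to 1.06). Il7r UMIs were found in 75 of 76 het and 101 of 102 KO gdTcells, with a median of 5 UMIs per cell in both. ILC2s, innate lymphocytes that make type 2 cytokines, had 548 CPM (496 to 603) in het and 657 CPM (595 to 724) in KO (KO/het 1.20, 1.04 to 1.38). Of them, 63 of 66 het and 61 of 65 KO cells carried an Il7r UMI, and the median was 6 and 5 UMIs per cell. Nearly every cell of these classes was thus positive, and neither class reached 1.5-fold. In ILC2s and gdTcells, 23.1% and 18.5% of all measured genes differed by the rule in either direction. Without the cells of highest Scrublet score the ILC2 ratio was 1.10 (0.953 to 1.28).

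Tcells had 489 CPM of Il7r in het and 485 in KO, with 70.0% and 75.0% of cells positive. Within het, gdTcells stood above ILC2s beyond counting error, while ILC2s and Tcells were within counting error of each other. Within KO, ILC2s and gdTcells were within counting error of each other and gdTcells stood above Tcells. The NK class was lower and more uneven. It had 253 CPM (210 to 302) in het and 349 CPM (304 to 399) in KO, from 14 of 52 and 22 of 54 cells, and a ratio of 1.38 (1.10 to 1.74). Single NK cells carried up to 26 UMIs in het and 27 in KO. Cluster 9 cells with a UMI of Ncr1, which encodes the NK receptor NKp46, had 25.1 CPM of Il7r in het and 80.9 in KO, from 1 of 30 and 9 of 34 cells. Cluster 9 cells without Ncr1 had 572 and 630 CPM. Most Il7r UMIs of cluster 9 were therefore outside its Ncr1 cells. Over the whole cluster the ratio was 1.07 (0.985 to 1.16), and 77.2% and 82.2% of cells were positive, or 36.8% and 39.9% after thinning to 1000 UMIs.

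B-lineage cells came next, and Il7r differed between their clusters. Cluster 1, with 3 of 7 B precursor markers, had 271 CPM in het and 272 in KO, in 51.9% and 54.4% of cells at median depths of 3934.5 and 4178 UMIs. Cluster 10 had 250 and 270 CPM, in 80.6% and 83.9% of cells. Clusters 6 and 16, with 6 and 7 of 7 B precursor markers, had 151 and 135 CPM and 147 and 168 CPM. Il7r is itself on that list of B precursor markers, so these marker counts do not stand apart from its level. Cluster 2 had 9.99 and 9.32 CPM. So the cluster with the lowest level of Il7r among the B cell-like ones was more than 10-fold below the others in both libraries.

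Marker UMIs also divided the cells of the 5 B cell-like clusters. Cells with Ms4a1 (CD20), which appears as B cells mature, had 63.0 CPM of Il7r in het and 73.5 in KO, against 217 and 217 in cells without. Cells with Rag1, the recombinase of antigen receptor genes, had 237 and 229 CPM, against 123 and 135. Cells with Igll1, the surrogate light chain of the pre-B cell receptor, had 157 and 146 CPM, against 161 and 173. A UMI of Il7r was present in 72.0% and 71.6% of cells with Igll1 and in 37.7% and 38.9% of cells without. Those shares were not thinned, and cluster 6, led by Igll1, had deeper cells than cluster 1. The part of depth in the shares was not tested. Over the 5 clusters Il7r had 159 CPM in het and 162 in KO (KO/het 1.02, 0.966 to 1.07), and 8.16% of genes differed by the rule there. In cluster 6 the ratio was 0.896 (0.822 to 0.975), under 1.5-fold.

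Smaller Il7r signals were seen in myeloid classes. Cluster 11 had 23.6 CPM in het and 31.5 in KO, in 27.0% and 33.3% of cells at median depths of 23815.5 and 19572 UMIs. There the order was opposite to that of Tslp: cells without C1qa had 56.9 and 85.6 CPM of Il7r, and cells with C1qa had 16.5 and 16.6. In dendritic-like cluster 14, cells with Ccr7, the homing receptor of migrating dendritic cells, had 88.5 CPM in het (24 cells) and 32.2 in KO (30 cells). The cells without Ccr7 had 3.48 and 3.53. Cells of cluster 14 with Xcr1, a marker of cross-presenting dendritic cells, had 4.72 and 5.14 CPM. Cluster 12, with mast cell and basophil genes beside granulocyte precursor and epithelial genes, had 17.5 and 12.2 CPM. Its cells with Mcpt8, a basophil protease, had 61.9 CPM in 29 het cells and 41.1 in 22 KO cells, against 10.4 and 7.95 in the rest.

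Stromal clusters, used as background for Il7r, had 2.40 CPM in het and 3.23 in KO, in 1.73% and 2.17% of cells, or 0.171% and 0.235% after thinning. Those few cells carried B cell transcripts. Stromal cells with an Il7r UMI had the B cell markers at 2262 CPM in het and 2151 in KO, against 425 and 449 in stromal cells without. In cluster 3, cells with Il7r had those markers at 1428 and 1544 CPM, against 292 and 268 in the others. Their part in these low Il7r levels was not tested further.

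Of 19 classes with at least 20 Il7r UMIs, 2 were higher and 3 lower in KO by the rule, all of them outside the lymphoid classes. Cluster 3 was lower, at 11.5 CPM (9.22 to 14.1) in het and 6.72 CPM (4.97 to 8.89) in KO (KO/het 0.585, 0.404 to 0.839), beside 10.2% of genes in either direction. Those UMIs were in 19 het and 16 KO cells, and without the cells of highest Scrublet score the ratio was 0.652 with an interval from 0.0545 to 5.69. Female cells gave 0.853 and male cells 0.250. Endothelial-like cluster 8 was lower at 25 and 6 UMIs (ratio 0.292; 11.8% of genes), and cluster 14 at 45 and 24 UMIs (0.635; 17.3% of genes). Cluster 5 was higher at 9 and 33 UMIs (2.79; 8.97% of genes) and cluster 7 at 8 and 20 UMIs (2.12; 11.4% of genes). These counts are small beside the 457 het and 598 KO Il7r UMIs of gdTcells.

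**Figure D3:**
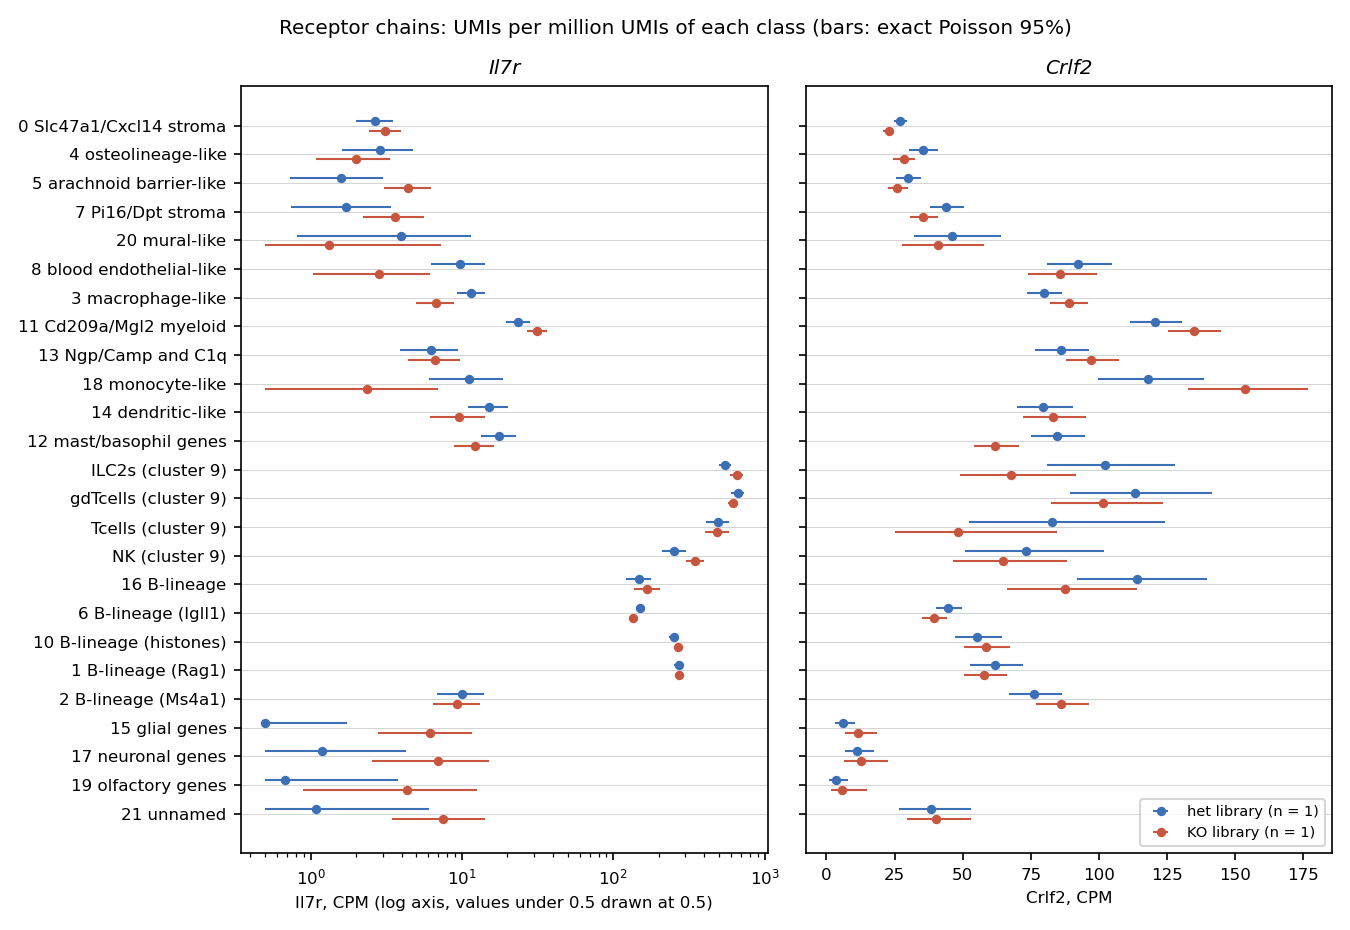
Il7r (left, log axis, values under 0.5 CPM drawn at 0.5) and Crlf2 (right, linear axis) levels in CPM in the 25 classes, with het in blue, KO in red and exact Poisson 95% bars. Il7r spans from under 10 CPM in stroma to 663 CPM in het gdTcells, and Crlf2 lies above 20 CPM in all classes but clusters 15, 17 and 19.

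Crlf2 (ENSMUSG00000033467, GRCm38 chromosome 5, 109554709 to 109558993, minus strand) encodes the chain that gives TSLP its own receptor. It gave 4857 UMIs in het and 5057 in KO, at 55.3 and 53.7 CPM over all cells, and was found in 43.4% and 40.8% of them. The lowest class was olfactory cluster 19, at 3.39 CPM in het and 5.76 in KO from 5 and 4 UMIs, in 5.95% and 7.32% of cells at median depths of 16714 and 16287. Cluster 17, with neuronal genes, had 11.2 and 12.7 CPM, and the glial genes cluster 15 had 6.16 and 11.6. All other classes were at 22.8 CPM or more. In het no neighbours in the ranking differed beyond counting error until cluster 0 and cluster 17, so the order of adjacent classes is not resolved there. Classes further apart in rank had wider gaps, such as cluster 11 at 120.5 CPM from 618 UMIs and cluster 6 at 44.7 CPM from 330 UMIs.

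Myeloid classes were among the highest for Crlf2. Cluster 11 had 121 CPM (111 to 130) in het and 135 CPM (125 to 145) in KO, in 88.3% and 88.8% of cells. Monocyte-like cluster 18 had 118 CPM (99.8 to 138) in het and 154 CPM (133 to 177) in KO. Macrophage-like cluster 3, the leading source of Tslp UMIs, had 79.7 and 88.9 CPM, so ligand and receptor transcripts were found in the same cluster. Over clusters 3, 11, 12, 14 and 18 together Crlf2 had 93.0 CPM in het and 100.1 in KO (KO/het 1.08, 1.01 to 1.15).

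Divisions by marker separated these myeloid cells further. In cluster 14, cells with Xcr1 had 87.8 CPM of Crlf2 in het and 87.9 in KO, against 33.2 and 56.1 in cells without. Cells of that cluster with Ccr7 had 39.3 and 73.9 CPM, against 85.8 and 85.6. The receptor chains thus had opposite orders there, with Il7r in the Ccr7 cells, though for Crlf2 the gap was small in KO. In cluster 12, cells with Mcpt8 had 162 CPM of Crlf2 in het and 145 in KO. Over the whole of cluster 12 the level was 84.5 and 61.8 CPM, a ratio of 0.732 (0.612 to 0.875), under 1.5-fold. Its cells had a median of 17454 UMIs in het against 9945.5 in KO, and what that gap does to the ratio was not tested. With each cell weighted equally the ratio was 0.551, which is past 1.5-fold.

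Lymphoid classes carried Crlf2 at 113 CPM in het and 101 in KO gdTcells, and at 73.2 and 64.9 CPM in NK. ILC2s had 77 UMIs in 40 of 66 het cells, or 102 CPM (80.8 to 128). They had 42 UMIs in 34 of 65 KO cells, or 67.8 CPM (48.9 to 91.7). The median ILC2 carried 1 UMI in both libraries and the highest cell carried 8 in het and 3 in KO. The ratio was 0.662 (0.444 to 0.977), lower in KO by the rule, as were 14.1% of all genes in ILC2s. Without the cells of highest Scrublet score it was 0.746 (0.482 to 1.15) and without the highest cell of each library 0.689 (0.453 to 1.03). With mitochondrial, ribosomal protein, hemoglobin and immunoglobulin genes left out of the totals it was 0.693, and with cells weighted equally 0.701. All 4 fall short of 1.5-fold. Female cells gave 0.570 and male cells 0.753. Over cluster 9 as a whole it was 0.808 (0.662 to 0.987).

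The Tcells class had 23 and 12 Crlf2 UMIs, a ratio of 0.586 (0.266 to 1.23), also lower by the rule beside 31.9% of genes in either direction. Without the cells of highest Scrublet score that ratio was 0.971. Of 24 classes with at least 20 Crlf2 UMIs these were the 2 that were lower in KO. The 1 that was higher was cluster 15, at 13 and 17 UMIs and a ratio of 1.89, where 22.6% of genes differed. B cell-like cells had 58.6 CPM in het and 56.7 in KO. Among them Crlf2 did not follow Il7r, since cluster 2 had 76.3 and 86.2 CPM of Crlf2.

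Non-immune classes also carried Crlf2. Endothelial-like cluster 8 had 92.2 CPM in het and 85.8 in KO, and mural-like cluster 20 had 46.2 and 40.8. The 4 stromal clusters had 31.0 CPM (29.2 to 32.9) in het and 26.0 CPM (24.5 to 27.6) in KO, from 1088 and 1079 UMIs, in 37.2% and 31.1% of cells. Their ratio was 0.839 (0.770 to 0.913), and it was under 1 in each of the 4 clusters without reaching 1.5-fold. Here 6.61% of all genes differed by the rule.

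**Figure D4:**
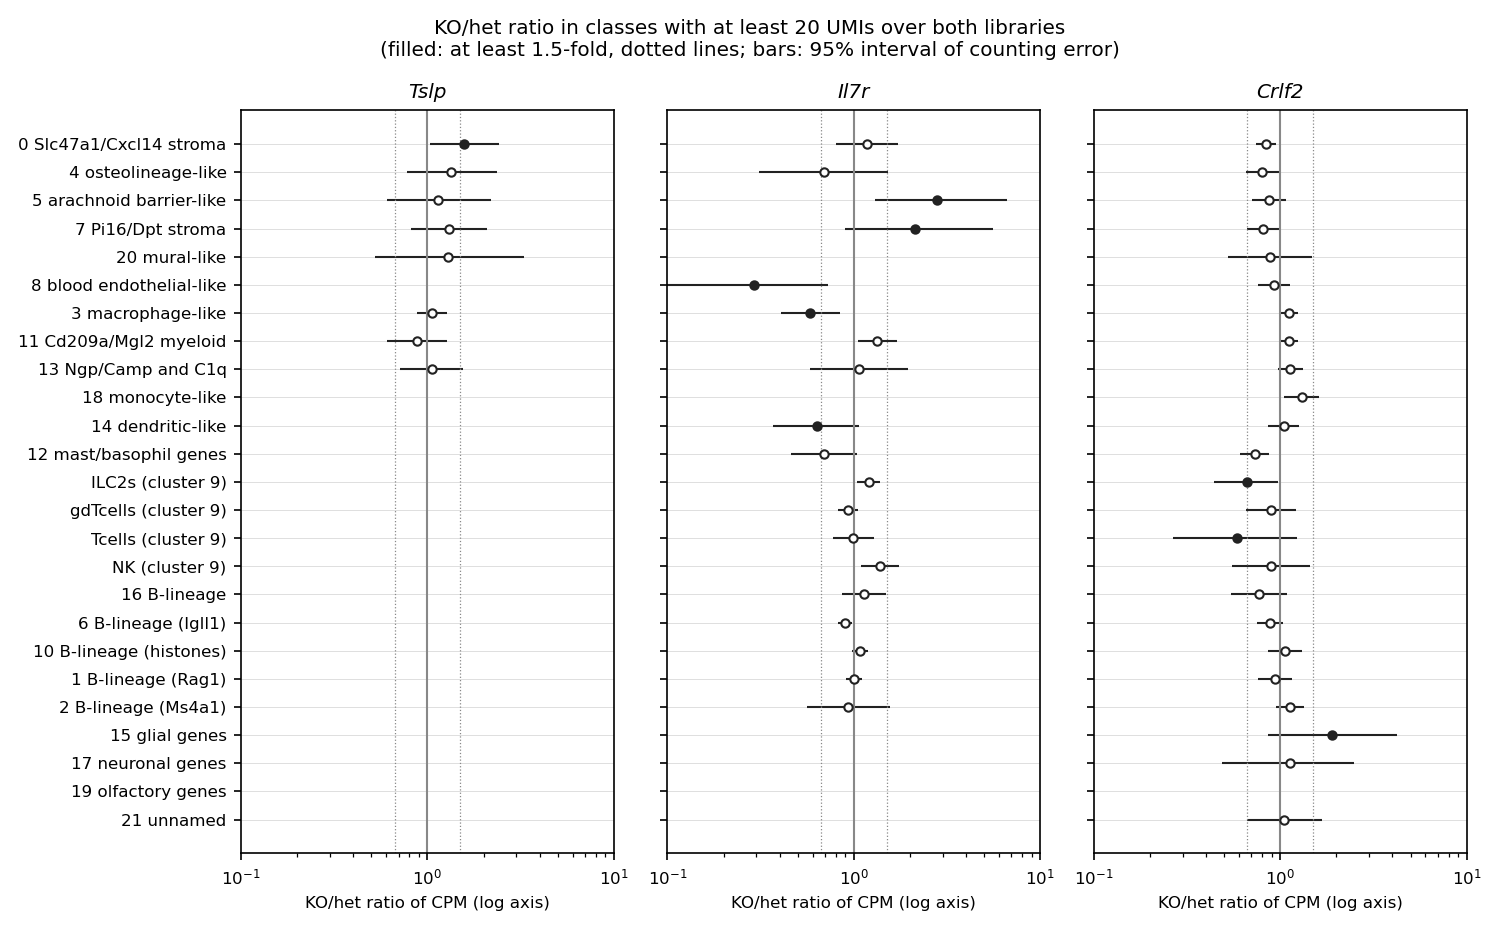
KO/het ratios (horizontal log axis) of Tslp, Il7r and Crlf2 in the classes with at least 20 UMIs over both libraries (vertical axis), with 95% counting intervals, dotted lines at 1.5-fold and filled points past it. The ratios run from 0.882 to 1.57 for Tslp, from 0.292 to 2.79 for Il7r and from 0.586 to 1.89 for Crlf2, and most points lie between the dotted lines.

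A cell needs both chains to bind TSLP with high affinity, so cells with UMIs of Il7r and of Crlf2 were counted. Both were found in 37 of 66 het ILC2s (56.1%, 43.3 to 68.3) and 32 of 65 KO ILC2s (49.2%, 36.6 to 61.9). In gdTcells both were found in 46 of 76 het (60.5%) and 57 of 102 KO cells (55.9%). Crlf2 without Il7r was found in 3 het and 2 KO ILC2s, and neither chain in 0 and 2. Few ILC2s lacked an Il7r UMI, so these counts do not show whether the chains go together. The ILC2 and gdTcell shares of the libraries overlapped within counting error.

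In Tcells both chains were found in 7 of 30 and 6 of 32 cells, and in NK in 9 of 52 and 11 of 54. Among B cell-like clusters the share was 49.2% in het and 43.0% in KO for cluster 6, 36.1% and 43.4% for cluster 10, 11.1% and 11.2% for cluster 1, and 2.13% and 1.65% for cluster 2. Cluster 6 cells were deeper than cluster 1 cells, with medians of 19690 het and 19368 KO UMIs, and these shares were not thinned. In cluster 11 both chains were found in 45 of 196 het and 65 of 240 KO cells, which were 84.9% and 81.2% of its cells with Il7r. Crlf2 alone was found in 128 het and 148 KO cells there, and neither chain in 15 and 12. Crlf2 was thus no less common in cluster 11 cells without Il7r. Stromal cells had both in 0.893% and 0.936%. Cluster 3 had both in 2.91% and 3.18%, so most of its Crlf2 cells had no Il7r UMI.

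**Figure D5:**
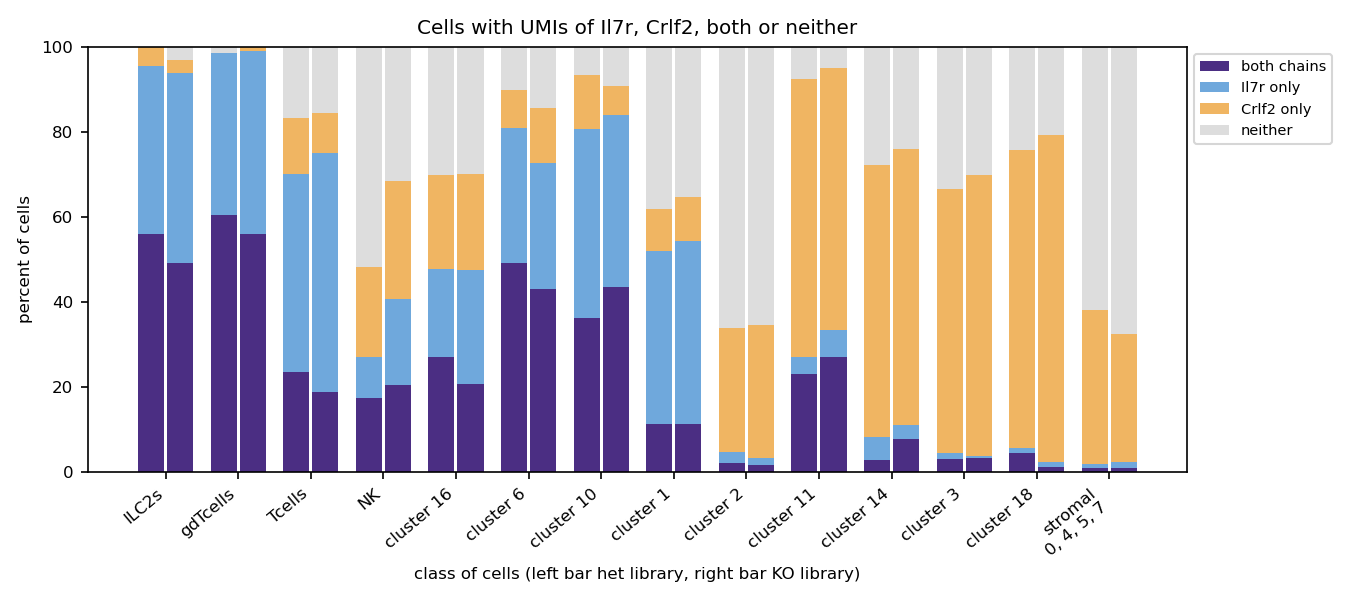
Percent of cells (vertical axis) with UMIs of both Il7r and Crlf2, of 1 chain or of neither, as stacked bars by class (horizontal axis) and library. Both chains were found in 49.2% to 60.5% of ILC2s and gdTcells, and clusters 3, 14 and 18 and the stroma show Crlf2 with little Il7r.

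For the IL-7 receptor the partner is Il2rg. ILC2s had both Il7r and Il2rg UMIs in 59 of 66 het and 57 of 65 KO cells, and gdTcells in 56 of 76 and 85 of 102. In cluster 1 they were found together in 107 of 646 and 143 of 829 cells. The Il2rg level in ILC2s was 266 CPM in het and 263 in KO (KO/het 0.990, 0.800 to 1.22). In B cell-like cells it was 60.7 and 61.6 CPM.

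Genes of the receptors' signals, of their partner chains and of other stromal cytokines were read from 5 lists of 53 entries. In ILC2s, 10 genes of the shared chain and signal list (Il2rg, the JAK kinases, STAT factors and others) had at least 20 UMIs. None of the 10 differed by the rule, beside 23.1% of all genes in either direction. Their median log2 ratio was -0.01 against -0.04 over all genes. Of 12 genes known to be induced by STAT5 that had at least 20 UMIs, 0 were higher and 4 lower in KO, in a class where 14.1% of all genes were lower. Those were Pim1, a survival kinase, at 658 CPM in het and 413 in KO (ratio 0.628, 0.538 to 0.732), Cd69, an activation marker, at 242 and 158, and the feedback inhibitors Socs2 at 125 and 75.9 and Socs3 at 22.6 and 12.9. The list's median log2 ratio was -0.06. Cish, another feedback inhibitor, stood at 226 and 181 CPM and was within 1.5-fold.

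Leaving out the 10% of cells with the highest Scrublet score took away 10 of 66 het and 1 of 65 KO ILC2s, after which 0 of the STAT5 genes were lower by the rule. The ratios were then 0.690 (0.584 to 0.815) for Pim1 and 0.713 (0.540 to 0.937) for Cd69. They were 0.677 (0.453 to 1.01) for Socs2 and 0.742 (0.255 to 2.09) for Socs3, whose intervals include 1. The genes were picked for being lower before, in mostly the same cells, so these ratios are not separate support. ILC2s in het and KO also differed in markers of other cells, with fibroblast markers at 473 and 1001 CPM and B cell markers at 187 and 53.3. The part of those in the ILC2 values was not tested. Of 5 genes lowered or opposed by IL-7 signals with at least 20 UMIs, 1 was higher in KO ILC2s (Foxo1) and 2 were lower (Klf2 and Bcl2l11). Il7r is itself on that list and was within 1.5-fold. Of 4 other chains that pair with Il2rg, 1 was lower (Il9r). Both counts stand beside the 23.1% of all genes that differed in ILC2s. Klf2, a factor of quiescent cells, had 62.5 CPM in het ILC2s and 19.4 in KO ILC2s (ratio 0.310), and 26.9 and 19.9 without the cells of highest Scrublet score (ratio 0.742, 0.317 to 1.70). In gdTcells it stood at 56.6 and 133 CPM (ratio 2.36, 1.64 to 3.46). Markers of other cells moved with it there: B cell markers summed to 149.5 CPM in het and 823 in KO gdTcells, fibroblast markers to 594 and 1039, and macrophage markers to 78.4 and 205. Klf2 had 677 CPM in het B cell-like cells and 1020 in het stroma, and the part of such cells in the gdTcell value was not tested.

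The STAT5 list was read in the other receptor-bearing classes in the same way. In Tcells 2 of its 10 genes with at least 20 UMIs were higher and 4 lower, among them Cish and Pim1, where 8.29% of all genes were higher and 23.6% lower, with a list median of 0.22 on the log2 scale, opposite in sign to the larger count. ILC2 markers in Tcells moved too, from 820 CPM in het to 182 in KO, and their part in these values was not tested. In gdTcells 1 of 12 was higher (Bcl2l1, a survival factor), beside 18.5% of all genes in either direction. In NK 1 of 12 was higher (Socs3) and 2 were lower (Cish and Bcl2l1), beside 14.1% of all genes higher and 9.92% lower. Over cluster 9 as a whole, 1 of 14 was higher (Osm) and 0 lower, with 10.2% of all genes higher and 5.80% lower. In the B cell-like clusters, 13 genes of the shared chain and signal list had at least 20 UMIs and 0 differed. Of 14 STAT5 genes there Osm alone was lower, and 8.16% of all genes differed in either direction. In cluster 6 Bcl2, a survival gene held up by IL-7 in lymphocytes, was higher in KO at a ratio of 1.61, beside 11.2% of genes.

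Stroma makes other cytokines for lymphoid cells, and 11 of 12 genes on a list of them had at least 20 UMIs there. Besides Il33 itself, Il6 was lower in KO stroma, at 16.5 CPM in het and 10.3 in KO (ratio 0.623, 0.548 to 0.707). No other gene of that list differed there by the rule, Cxcl12, Kitl and Il15 among them, beside 6.61% of all genes in either direction. In cluster 3, 11 genes of the list had at least 20 UMIs, of which Il33 and Il6 were lower and Ccl21a, a chemokine of lymphatic endothelium, higher in KO, beside 10.2% of all genes. Il6 there rested on 18 and 11 UMIs, with an interval of 0.277 to 1.45.

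Genes with the most similar pattern were named for each member with enough UMIs, by Pearson r of log2(CPM + 5) over 50 class-by-library values, which share library and depth. For Tslp they were the macrophage and monocyte chemokine genes Ccl7 (r = 0.88) and Ccl2 (0.86), then Mertk (0.85), a receptor for uptake of dying cells, Adap2os (0.85) and Ggt5 (0.83). For Il7r they were Tespa1 (0.90), Sept1 (0.88), Il2ra (0.87), Wdr89 (0.87) and Ptprcap (0.87). For Crlf2 they were Capzb (0.86), Gnai2 (0.84), Srgn (0.83), Lrrfip1 (0.83) and Gpsm3 (0.83). Il7 was too sparse for such a measure.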

How the data were processed

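UMI counts per gene and cell for 1 het and 1 KO library, and a table of the cells the authors kept with cluster numbers and, for cluster 9, cell names, were used as deposited. The submitters' processing notes name Cell Ranger 3.0.2 and the mm10 genome. Annotation, strand setting and cell filters: not given in the sources used here. A percent of mitochondrial UMIs deposited by the authors was not used for any value. The metadata label P14HOMO was read as the KO library. The deposited count table and the matrices gave the same counts for the 4 genes in every annotated cell, and no column of an unknown sample was present (0).

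UMIs were summed per class and library in Python 3.11.15 (pandas 2.3.3, numpy 2.4.6). CPM intervals are exact Poisson, shares exact Clopper-Pearson, and ratios conditional binomial at 95% (scipy 1.17.1), and all cover counting error only. A count of 0 was given the limit of 3 counts. Thinned shares are those expected over random draws of 1000 UMIs per cell, leaving out shallower cells. Doublets were not removed; Scrublet scores (scanpy 1.11.5) were used to leave out the 10% highest. The steps were tested on simulated data. Figures used matplotlib 3.10.9.

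Named genes were the members, the pathway lists, the 5 genes of highest r per member among genes with at least 100 UMIs, Il33 and the markers of 24 cell types. A cluster was called like a type when at least 3 markers were 2-fold above the other cells and its leading 10 genes did not go against it. The members and all lists were chosen with earlier results of these data known, so no list is independent support. Clusters were made from the same cells, so differences between classes are descriptions. Comparison of genotypes rests on 1 pooled library each, without a test.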

Additional observations from a re-analysis of the deposited data

Results flagged for a closer look

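The matrices also held barcodes that the authors did not annotate, 4986 in het and 5452 in KO, with medians of 2343 and 2562.5 UMIs. These are data outside the comparisons above, and each of the 4 genes gave a signal there above the limit a count of 0 allows, 0.119 CPM in het and 0.106 in KO. Il7 had 4 UMIs in het (0.158 CPM) and 5 in KO (0.177 CPM). Tslp stood at 4.86 and 5.02 CPM, with a UMI in 1.48% and 1.76% of barcodes. Il7r stood at 12.8 and 15.7 CPM, in 2.93% and 3.72% of barcodes. Crlf2 stood at 26.4 and 25.7 CPM, in 6.82% and 6.75%. What these barcodes hold was not tested.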

How the results depend on the processing

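No paired analysis was possible because each genotype had 1 library and both carry the same replicate number. Over the alternatives run (another scaling, cells weighted equally, no cells of highest Scrublet score, no highest cell, a minimum of 2000 UMIs per cell, female or male cells, the matrices), 55 values of the comparisons named in the design moved by less than their interval and 1 moved more. That was the Crlf2 ratio over clusters 3, 11, 12, 14 and 18, which was 1.01 with cells weighted equally against 1.08. No called ratio changed direction. Of the other values, 475 were rated the same and 196 as moved. Ratios, levels and shares were rated against their interval, and counts of listed genes or like genes against 1.5-fold of the main count. With at least 50 UMIs, 3 genes of the STAT5 list were lower in ILC2s, and at 2-fold 0 were, against 4. With a pseudocount of 1, 3 of the 5 like genes were shared for Tslp, 4 for Il7r and 3 for Crlf2. Depth limits Il7 most: counts under 20 UMIs per class support no ratio.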
